A study of Homo sapiens with 8 samples.

Results

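The subject is 7 genes of the poly(A) polymerase family, followed through splice junction counts from HEK293 cells, out of 22008 genes with at least 1 read on an annotated junction. They were TENT2, TENT4A, TENT4B, PAPOLA, PAPOLG, MTPAP and TUT1. A junction was assigned to a gene when it matched one of the gene's GRCh38 introns in GENCODE 29 or shared a splice site with one. TENT2 was selected on the measured inclusion of an unannotated exon, which differed between these groups, so every TENT2 value is a description without a test. The other 6 genes were taken for their family and not for their values, though earlier results of these data were known. They were tested within fits over all genes, exons or junctions. HEK293 cells are a long-established line derived from human embryonic kidney. The control group was 4 libraries from cells given DMSO, the solvent (replicates 9 to 12), and the treated group was 4 libraries from cells given 25 nM LMI070 (replicates 13 to 16). LMI070, also called branaplam, is a drug-like compound that changes which splice sites are used. Libraries were made with a stranded kit from total RNA after removal of ribosomal RNA. No label says that the libraries stem from different cultures, so each p measures the spread between these libraries, which may be technical.

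Poly(A) polymerases add adenosines to RNA 3′ ends. PAPOLA is the canonical nuclear enzyme that makes the tail of most mRNAs after cleavage, and PAPOLG is a close nuclear relative. TENT2 (also GLD2 or PAPD4) works in the cytoplasm, where it lengthens tails of stored or deadenylated mRNAs and adenylates some microRNAs; it binds RNA poorly by itself and is brought to its targets by partner proteins. TENT4A and TENT4B extend tails with occasional other nucleotides and also mark faulty nuclear RNAs for decay. MTPAP makes the tails of mitochondrial mRNAs. TUT1 mainly adds uridines to the U6 spliceosomal RNA and has also been described as a nuclear poly(A) polymerase.

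Depth was 20369466 to 36131054 uniquely mapped junction reads per library, the deepest being LMI070 replicate 13. Libraries fell into sequencing lane 7 (DMSO 11 and 12, LMI070 13 and 16) and lane 8 (DMSO 9 and 10, LMI070 14 and 15), so each lane held both groups. In a scaling plot of gene levels, 2 libraries (DMSO 12 and LMI070 16) lay apart, and results are also given without them. Of 9 HEK293 identity genes, 8 were above 1 CPM (spliced reads scaled to a common library size) in every library, and the remaining one, PAX2, ran from 0.439 to 0.932 CPM. No marker of blood, keratinocytes or hepatocytes reached 1 CPM in all libraries. Of 3 fibroblast genes only COL1A1 did (16.8 to 28.9 CPM), while the highest DCN value was 0.108 CPM and the highest LUM value 0.314 CPM.

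The sequences on either side of the extra TENT2 exon show where it enters the message. They come from GENCODE 29 transcript TENT2-201, which has 16 exons on the plus strand of chromosome 5 (the gene spans 79612120 to 79686648). The extra exon lies within the intron between exons 7 and 8, and neither of its splice sites is in the annotation. It is what remains between the junctions chr5:79641197-79641454 and chr5:79641518-79642831 (GRCh38). It is 63 nt long, or 21 codons with no remainder. Its own sequence is not used here. In the first line the capitals mark the last 3 bases of exon 7, to which the extra exon is joined. In the second the capitals mark the 12 bases between 2 alternative 3′ splice sites (acceptors) of exon 8, both annotated; messages that use the second acceptor lack those bases, which are 4 codons.
TENT2 exon 7, chr5:79641105-79641196: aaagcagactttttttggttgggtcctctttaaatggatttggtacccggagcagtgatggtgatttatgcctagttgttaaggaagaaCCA
TENT2 exon 8, chr5:79642832-79642910: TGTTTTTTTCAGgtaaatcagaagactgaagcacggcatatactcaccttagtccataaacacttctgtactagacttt
Exon 8 starts on a codon boundary in the annotated frame, so both the 63-nt insertion and the 12-nt choice keep the annotated frame by length; whether the insertion holds a stop codon was not determined.

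Reads entering the extra exon were more numerous in every LMI070 library than in any DMSO library. The junction from exon 7 into the exon had 3, 10, 10 and 5 reads in DMSO replicates 9 to 12 and 35, 20, 24 and 16 in LMI070 replicates 13 to 16. The groups did not overlap, although the highest DMSO count of 10 and the lowest LMI070 count of 16 are both small. Scaled to library size, this was 0.274 ± 0.119 junction CPM in DMSO and 0.886 ± 0.195 in LMI070 (SD, n = 4). The exon was thus already spliced in without the compound, at 28 reads over the 4 control libraries against 95 over the treated ones. No other junction ended at the exon's 3′ splice site in any library.

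Reads leaving the extra exon split between the 2 acceptors of exon 8. The junction to the first acceptor had 3, 4, 7 and 3 reads in DMSO and 13, 13, 7 and 7 in LMI070. The junction to the second had 4, 7, 2 and 1 reads in DMSO and 11, 6, 9 and 4 in LMI070. Raw counts of both junctions overlapped between groups, and only the first was free of overlap after scaling (0.169 ± 0.0661 against 0.370 ± 0.0800 CPM). The second acceptor took 14 of 31 reads leaving the exon in DMSO (45.2%, exact Clopper-Pearson 95% interval 27.3% to 64.0%) and 30 of 70 in LMI070 (42.9%, 31.1% to 55.3%). The intervals, which cover counting error only, overlap over most of their length.

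Reads that skip the exon were fewer with LMI070. To the first acceptor they were 61, 59, 82 and 70 in DMSO and 52, 34, 27 and 56 in LMI070. To the second they were 52, 74, 63 and 71 against 64, 46, 35 and 48. Both acceptors together gave 5.38 ± 0.626 skipping CPM in DMSO and 3.43 ± 0.825 in LMI070, without overlap, LMI070 replicate 16 being the highest treated library at 4.66. Among skipping reads the second acceptor's share was 48.9% ± 5.34 in DMSO and 53.8% ± 5.20 in LMI070, a difference smaller than the spread between libraries.

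The share of the extra exon depends on how the pair of acceptors is counted. Of the reads leaving exon 7 for the exon or for either acceptor, 2.59%, 6.99%, 6.45% and 3.42% joined the extra exon in DMSO, against 23.2%, 20%, 27.9% and 13.3% in LMI070. The means were 4.86% ± 2.18 and 21.1% ± 6.12, and the lowest treated library, replicate 16, was above the highest control library. With both inclusion sides and both acceptors counted, inclusion was 5.20% ± 1.89 in DMSO and 18.9% ± 5.40 in LMI070. With skipping reads to the first acceptor alone and the matching downstream junction, as an exon is usually scored from 3 junctions, it was 7.52% ± 2.92 and 29.4% ± 8.53, a difference of 21.9 points. That value sets an upstream junction serving both acceptors against skipping reads to only one of them. The 3-junction difference was 16.9 points in lane 7, 26.9 in lane 8 and 25.3 without the 2 libraries that lay apart.

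**Figure D1:**
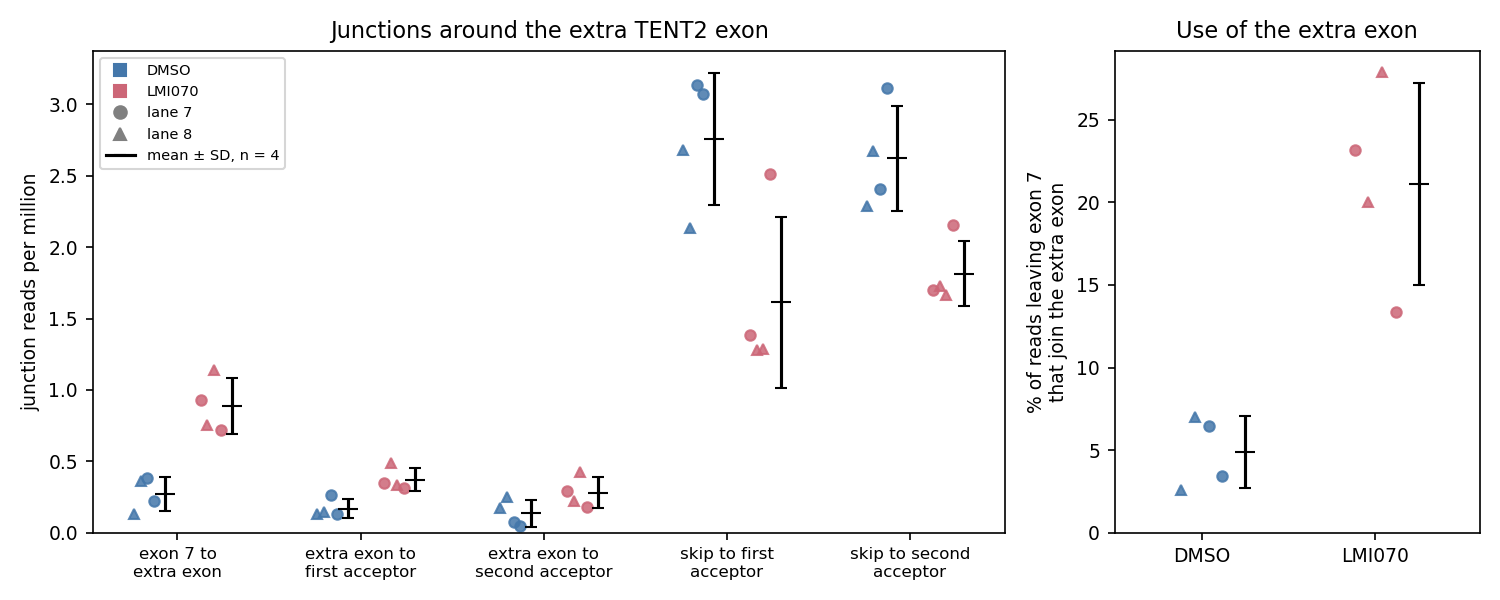
Left, junction CPM for the 5 junctions around the extra TENT2 exon, each point 1 library (circle lane 7, triangle lane 8) and bars the mean ± SD of 4 libraries. Right, percent of reads leaving exon 7 that join the extra exon; all 4 LMI070 libraries (13.3% to 27.9%) lie above all 4 DMSO libraries (2.59% to 6.99%).

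TENT2 was lower with LMI070 over its whole length, on both sides of the extra exon. Summed over its annotated junctions, spliced reads were 75.4, 80.4, 82.3 and 93.3 CPM in DMSO replicates 9 to 12 and 55.9, 60.6, 55.5 and 58.2 CPM in LMI070 replicates 13 to 16. Every treated library was below every control library, as was the case for 2.58% of the 14250 genes tested. The means were 82.8 ± 7.54 and 57.6 ± 2.37 CPM, a log2 ratio of -0.53, or -30.5%. The log2 ratio was -0.62 in lane 7 and -0.42 in lane 8, and the fitted value without the 2 libraries that lay apart was -0.46. In bulk RNA such as this, fewer cells making a transcript and less of it per cell cannot be told apart.

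Intron by intron, the lower level ran along the whole gene. TENT2 had 15 annotated junctions with a mean of at least 50 reads per library, 14 of them introns of TENT2-201 and 1 the second acceptor of exon 8. All 15 had a lower mean in LMI070, with log2 ratios from -0.77 to -0.38 and a median of -0.53. For 12 of them the groups did not overlap, against 2.02% of 84670 annotated junctions of like depth over all genes. Introns of 1 gene share their transcripts and are not replicates. The 15 include the 2 junctions that skip the extra exon, which enter the inclusion by which TENT2 was chosen. Apart from these, all 5 introns before the exon and 6 of the 8 after it were without overlap. The 5 introns before the extra exon had a median log2 ratio of -0.52 and the 8 after it -0.54. The lowest ratio belonged to the skipping junction to the first acceptor (2.76 ± 0.461 to 1.61 ± 0.599 CPM). There the groups overlapped, with LMI070 replicate 16 at 2.51 CPM and DMSO replicate 10 at 2.13.

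Single introns show the same ordering of libraries. Intron 3 (5:79619786-79619993) had 5.63, 6.26, 6.42 and 5.66 CPM in DMSO and 3.59, 3.99, 3.38 and 4.57 in LMI070. Intron 11 (5:79649191-79656957) had 5.54, 5.57, 5.70 and 5.27 in DMSO and 3.54, 3.95, 3.57 and 3.59 in LMI070. In both, each treated library was lower than each control library. Intron 10 and intron 13 overlapped between groups, at log2 ratios of -0.40 and -0.38. Intron 1 was too thin to compare, with a mean of 20.5 reads per library and 0.889 ± 0.239 against 0.706 ± 0.213 CPM. Of the reads leaving exon 7, the extra exon included, there were 5.65 ± 0.627 CPM in DMSO and 4.31 ± 0.725 in LMI070, and here the groups overlapped through LMI070 replicate 16 at 5.38.

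**Figure D2:**
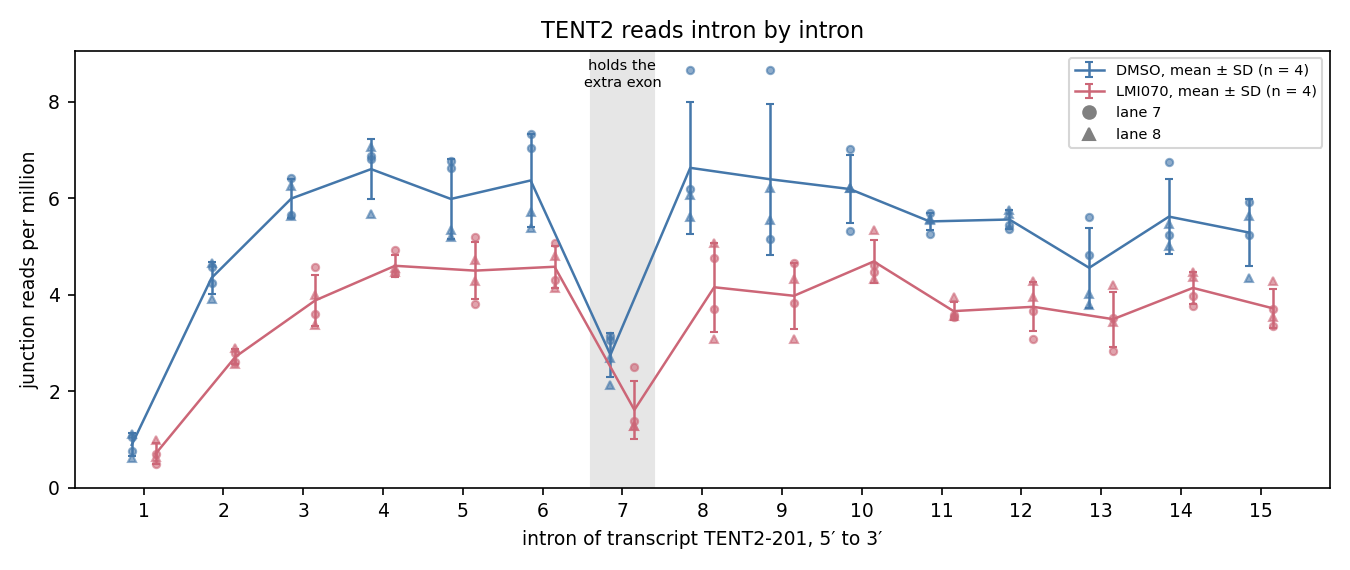
Junction CPM (vertical axis) for the 15 introns of transcript TENT2-201 in order from 5′ to 3′, with points for libraries (circle lane 7, triangle lane 8) and lines through the mean ± SD of 4 libraries. Intron 7, shaded, shows only skipping reads to the first acceptor; the LMI070 mean is below the DMSO mean at all 15 introns.

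Other alternative events in TENT2 were smaller. In TENT2, 10 cassette exons (exons with reads for joining and for skipping) passed the read minimum, 6 of them unannotated on both sides. The 10 include forms of 44 and 48 nt that share their upstream and skipping junctions. An unannotated 89-nt exon in intron 2 (5:79614472-79614560) was included at 4.81%, 3.37%, 5.53% and 5.88% in DMSO and 9.87%, 8.33%, 10.7% and 10.1% in LMI070, without overlap. Its upstream junction had 7 and 18 reads over the groups, its downstream junction 37 and 45, and the junction that skips it 433 and 294. Taken singly, both of its junctions overlapped between the groups in usage. The upstream junction was at 1.41% ± 1.03 and 4.38% ± 3.29, with LMI070 replicates 15 and 16 at 1.67% and 1.41%. The downstream junction was at 7.47% ± 1.81 and 12.4% ± 4.22, with LMI070 replicate 14 at 7.37%. A 91-nt exon in intron 9 (5:79646143-79646233) went from 2.32% ± 0.983 to 5.57% ± 2.44, also without overlap, on 15 and 24 upstream and 13 and 22 downstream reads. How often exons over all genes lacked overlap was not counted. Neither length is a multiple of 3. The annotated 70-nt exon at 5:79617530-79617599 gave 3.38% ± 1.205 and 7.18% ± 2.28, with overlap.

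Annotated exons of TENT2 further along kept their inclusion within the spread. The 129-nt exon between introns 10 and 11 was at 97.6% ± 1.32 and 97.2% ± 0.864, and the 44-nt exon after it at 89.9% ± 1.39 and 88.7% ± 2.25. At the 5′ end, usage of the junction of intron 2 (5:79613076-79619611) among all junctions sharing one of its ends was 80.6% ± 3.82 in DMSO and 68.2% ± 1.89 in LMI070, without overlap. This is the junction that skips the 89-nt and 70-nt exons, so its usage is not independent of their inclusion. Over all junctions tested, 2.45% had usage without overlap in either direction. Reads on unannotated junctions, those of the extra exon among them, made up 3.84% ± 0.421 of TENT2 reads in DMSO and 6.64% ± 0.710 in LMI070. In the other 6 genes this share was at most 3.38% ± 0.660 in DMSO and 4.26% ± 0.296 in LMI070, both in TENT4B. The TENT2 share holds the 28 and 95 reads entering the extra exon, by which TENT2 was chosen. The genes can therefore not be ranked by it.

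None of the other 6 poly(A) polymerase genes passed the gene test, edgeR's quasi-likelihood test with Benjamini-Hochberg adjustment over 14250 genes, in which 0.133% of genes were called at an adjusted p under 0.05. One of the 6 had an unadjusted p under 0.05 with edgeR and also with DESeq2, which called none. Over all genes 1431 (10%) had such an unadjusted p.

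Among the nuclear enzymes, PAPOLA had 328, 330, 337 and 379 CPM in DMSO and 400.4, 314, 324 and 415 in LMI070. The 2 treated libraries of lane 7 were above all controls and the 2 of lane 8 below them. The fitted log2 change was 0.07 ± 0.05 (SE, edgeR adjusted p = 0.612), with log2 ratios of 0.19 in lane 7 and -0.04 in lane 8. PAPOLG was level, at 58.0 ± 0.958 CPM in DMSO and 58.4 ± 2.85 in LMI070 (log2 change 0.01 ± 0.05, edgeR adjusted p = 0.963). TUT1 had 17.8 ± 1.44 and 17.5 ± 1.11 CPM (log2 change -0.02 ± 0.08, edgeR adjusted p = 0.953).

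Of the related pair TENT4A and TENT4B, neither passed the test, and their estimates had opposite signs. TENT4A had 61.8, 66.5, 62.6 and 64.7 CPM in DMSO and 78.3, 67.8, 64.6 and 79.8 in LMI070. Its high libraries, replicates 13 and 16, were those of lane 7. Its log2 change was 0.18 ± 0.06 (edgeR adjusted p = 0.317), with 0.31 in lane 7 and 0.04 in lane 8. TENT4A passed the test in lane 7 alone (edgeR adjusted p = 0.00989) and when genes of low counts were kept in (0.0482), and its adjusted p was 0.864 without the 2 libraries that lay apart. TENT4B had 39.1 ± 1.495 and 36.7 ± 3.34 CPM (log2 change -0.09 ± 0.06, edgeR adjusted p = 0.617), with -0.23 in lane 7 and 0.04 in lane 8.

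MTPAP, the mitochondrial enzyme, had 39.6, 41.7, 38.6 and 49.6 CPM in DMSO and 41.1, 41.8, 41.3 and 45.6 in LMI070. In each group 1 library stood above the rest, DMSO replicate 12 and LMI070 replicate 16, the same 2 that lay apart in the scaling plot. The fitted change was 0.00 ± 0.07 on the log2 scale (edgeR adjusted p = 0.996).

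**Figure D3:**
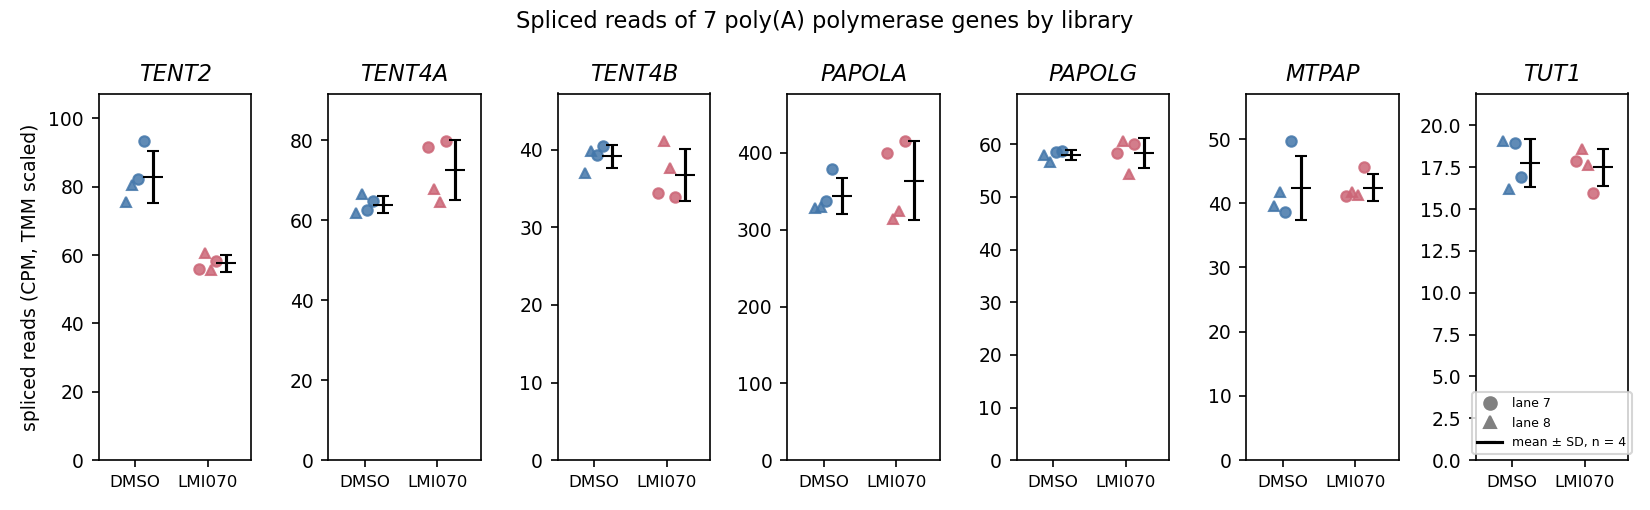
Spliced reads per gene (CPM after TMM scaling) for the 7 genes, 1 panel each with its own vertical axis from 0; points are libraries (circle lane 7, triangle lane 8) and bars the mean ± SD of 4 libraries. TENT2 is the panel in which the groups do not overlap (55.5 to 60.6 CPM in LMI070, 75.4 to 93.3 in DMSO), and the raised TENT4A and PAPOLA libraries of LMI070 are those of lane 7.

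Levels can be compared between genes by the median count over the introns of 1 transcript each, which does not grow with the number of introns. On that scale PAPOLA was the most abundant, at 16.6 ± 0.964 junction CPM in DMSO and 17.3 ± 2.64 in LMI070, and its lowest library (15.003) exceeded every library of the other genes. In DMSO, TENT2 (5.59 ± 0.252), TENT4A (5.53 ± 0.383) and MTPAP (5.06 ± 0.542) overlapped with one another. TENT4B followed at 3.30 ± 0.233, PAPOLG at 2.71 ± 0.123 and TUT1 at 2.18 ± 0.163, and none of these 3 overlapped with its neighbours in DMSO.

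In LMI070, TENT2 no longer lay with TENT4A and MTPAP. It was at 3.81 ± 0.279 CPM, with libraries from 3.57 to 4.21, while TENT4A was at 6.19 ± 0.800 and MTPAP at 5.29 ± 0.244. TENT4B (3.07 ± 0.259) and PAPOLG (2.76 ± 0.0602) overlapped in LMI070, and TUT1 was again lowest at 2.18 ± 0.224.

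The 6 other genes showed no splicing event past the tests. For these genes 13 cassette exons and 84 junctions could be tested, and 0 were called. The 13 are not all separate exons, as some are forms that share their upstream and skipping junctions. Such forms were 110, 114 and 163 nt long in PAPOLA and 27, 130 and 152 nt long in PAPOLG. A call needed 10 points of change and an edgeR adjusted p under 0.05, which 0.137% of 32020 exons and 0.0687% of 129495 junctions met over all genes. At an unadjusted p under 0.05 there were 1 exon and 8 junctions with edgeR (5.26% of all exons and 3.79% of all junctions had such a p), and 1 and 2 with DESeq2, which also called 0. TENT4B, MTPAP and TUT1 had no cassette exon with enough reads.

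The exon and junction of each gene with the smallest p were as follows. In PAPOLA a 122-nt annotated exon (14:96547797-96547918) was included at 98.7% ± 0.878 in DMSO and 99.6% ± 0.452 in LMI070 (edgeR adjusted p = 0.423), with 24 and 9 skipping reads over the groups. The difference of 0.96 points was 0.54 without DMSO replicate 11. The junction that skips it had a usage of 0.676% ± 0.446 and 0.191% ± 0.227 (edgeR adjusted p = 0.930). In PAPOLG an unannotated 27-nt exon (2:60785717-60785743) was at 4.04% ± 2.23 and 1.22% ± 1.02 (edgeR adjusted p = 0.964). It rested on 11 and 4 upstream reads and on 3 and 1 downstream reads over the groups. The upstream reads are shared with forms of 130 and 152 nt. A PAPOLG junction (2:60792290-60793626) was at 100% ± 0 and 98.7% ± 2.05 (edgeR adjusted p = 0.930). That difference of -1.27 points was -0.26 without LMI070 replicate 14, the library at 95.7%. All of these differences overlapped between the groups.

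In TENT4A the junction of smallest p belonged to the choice of first exon end, and it was not called. The junction 5:6714700-6737509 was used at 82.4%, 85.4%, 94.4% and 88.1% in DMSO and 77.8%, 73.6%, 83.3% and 67.4% in LMI070, so that LMI070 replicate 15 overlapped with the controls. The difference of -12.1 points (edgeR adjusted p = 0.930) was -18.7 points in lane 7 and -5.43 in lane 8. A pair of junctions from other 5′ splice sites to the same acceptor, which compete with it, had higher means. They were at 4.38% ± 1.10 to 9.90% ± 4.09 and 5.17% ± 4.88 to 11.1% ± 2.98 (edgeR adjusted p = 0.930 for both). Both overlapped between the groups, on 7 and 20 reads and on 8 and 22 reads in DMSO and LMI070. A 129-nt TENT4A exon (5:6743712-6743840) was at 98.1% ± 1.58 and 96.3% ± 1.43 (edgeR adjusted p = 0.988), a difference of -3.91 points in lane 7 and 0.33 in lane 8. In TUT1 the junction 11:62576245-62576656 was at 83.5% ± 4.66 and 88.6% ± 6.93, and in MTPAP the junction 10:30322618-30326423 at 99.6% ± 0.813 and 100% ± 0 (edgeR adjusted p = 0.930 for both).

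In TENT4B the junction of smallest p was a choice between acceptors. Its exon at 16:50225098 has a second, unannotated acceptor 141 nt, or 47 codons, further on, at 50225239. The junction to it was used at 36.5%, 37.9%, 27.1% and 27.6% in DMSO and 38.8%, 47.2%, 47.1% and 40.0% in LMI070. Every treated library was above every control library, the closest being 37.9% and 38.8%. The difference of 10.96 points (edgeR adjusted p = 0.930) was 12.03 points in lane 7, 9.89 in lane 8 and 10.5 without the 2 libraries that lay apart. Of the 84 junctions, 3 had groups without overlap, where 2.45% of all junctions tested did: this one, the junction to the first TENT4B acceptor, which is its complement, and a PAPOLA junction (93.3% ± 0.620 to 92.1% ± 0.624).

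**Figure D4:**
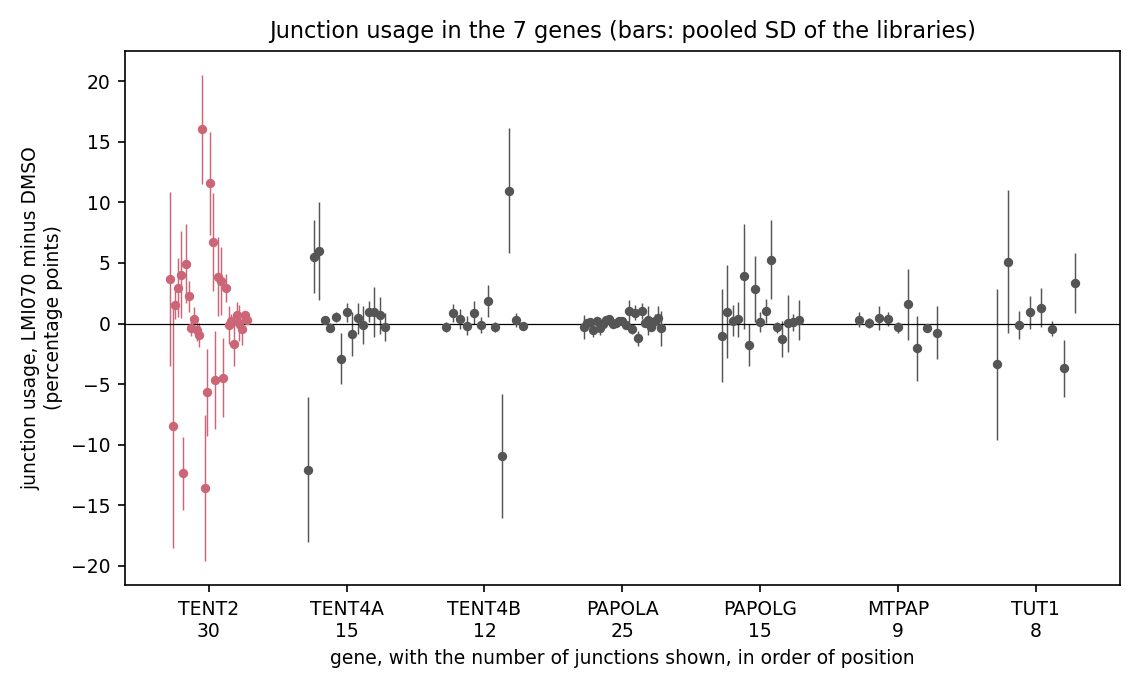
Change in junction usage (percentage points, LMI070 minus DMSO) for every tested junction of the 7 genes in order of position, with bars for the pooled SD of the libraries. Outside TENT2 the points far from 0 are the complementary TENT4B pair at 10.96 and -10.9 points and a TENT4A junction at -12.1; none was called.

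Competing acceptors were found in 5 of the 7 genes. Each of these had an annotated 5′ splice site joined to 2 acceptors at most 200 nt apart, each with at least 5% of the pair's reads. Bases at 4 of these acceptor pairs are shown to set the TENT2 choice beside the others. Capitals mark the bases between the acceptors, except in TENT4B, where the line gives the last 30 of the 141 bases and the capitals are the AG just before the second acceptor. No sequence is printed for MTPAP, whose acceptors lie 4 nt apart.
TENT2, exon start chr5:79642832 or 79642844: TGTTTTTTTCAGgtaaatcagaagactgaa
PAPOLA, exon start chr14:96555847 or 96555850: CAGaaacagtcctgctccagctgtaacagc
TENT4A, exon start chr5:6754751 or 6754754: CAGcacaacggcatgaaactgtccatgaag
TENT4B, exon start chr16:50225098 or 50225239: ttagtaaacactcttcaaactcttcatcAG
In TENT2, PAPOLA, TENT4A and TENT4B the distance is a multiple of 3. In PAPOLA the second acceptor took 6.70% ± 0.703 of the pair's reads in DMSO and 7.71% ± 0.603 in LMI070. In TENT4A it took 5.70% ± 1.14 and 5.42% ± 1.21, and in MTPAP 92.4% ± 2.76 and 94.5% ± 2.67. In these 3 genes and TENT2 the groups overlapped, and in TENT4B they did not.

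LMI070 is known to act at 5′ splice sites of exons that end in GA, so annotated exons of the 7 genes with that ending were listed. Of 102 exon ends of these genes with at least 20 reads, 5 ended in GA (4.90%), against 1.602% of 145705 exon ends over all genes. The last 30 bases of each are given with the final 3 in capitals.
TENT2, chr5:79619612-79619785: agatgcacaattcaactttcagaatgcAGA
TENT2, chr5:79668892-79669028: ctttcttaaatattatgctacagaattTGA
PAPOLA, chr14:96527430-96527539: aaattacaggaagaagtaaaagatttaAGA
PAPOLG, chr2:60768781-60768890: aaacatcaagatggcattagaaacttaAGA
PAPOLG, chr2:60786947-60787066: attcccagggaataaggaacatcataaAGA
All 5 were joined to their usual next exon almost without exception in both groups. Usage of the junction after them was 98.8% to 100% as a group mean, the lowest being PAPOLA at 99.2% ± 0.281 in DMSO and 98.8% ± 0.758 in LMI070, and the groups overlapped for all 5. Usage in DMSO was already near its ceiling at all 5, so a rise with LMI070 could not have been seen. The match is a description of the letters at these ends only. Exon 7 of TENT2, printed above, ends in CCA.

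A list of 76 other genes of poly(A) tail metabolism was counted in the same gene test. Of these, 72 were tested and 0 were called by edgeR or DESeq2. At an unadjusted p under 0.05, which 10% of all genes had with edgeR, there were 9 with edgeR (7 higher and 2 lower) and 8 with DESeq2. Their median log2 change was 0.01, against -0.002 over all genes tested. None of the 10 partners of cytoplasmic polyadenylation was called (median 0.06), nor any of 17 tested cleavage and polyadenylation factors (median 0.001), 19 deadenylases (median 0.03), 8 poly(A) binding proteins (median 0.08), 7 TENT4 partners (median -0.04) or 7 genes of mitochondrial RNA 3′ ends (median -0.06). Of 7 further terminal nucleotidyltransferases 4 were tested, with 0 called (median -0.005).

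None of the 6 genes of that list with the smallest p passed the test. LARP1, which binds poly(A) and the 5′ ends of ribosomal protein mRNAs, had 273, 265, 251 and 253 CPM in DMSO and 321, 267, 279 and 333 in LMI070 (log2 change 0.20 ± 0.06, edgeR adjusted p = 0.269). Its high treated libraries were replicates 13 and 16, both of lane 7, and the log2 ratio was 0.38 in that lane and 0.02 in lane 8. CNOT6, a deadenylase subunit, was at 45.3 ± 4.09 and 52.2 ± 7.98 CPM (edgeR adjusted p = 0.336), and CPSF1, a subunit of the cleavage complex, at 147 ± 12.3 and 167 ± 13.5 CPM (0.384). CPEB3, of the family that brings TENT2 to mRNAs, was at 2.59 ± 0.633 and 3.57 ± 0.233 CPM (log2 change 0.48 ± 0.16, edgeR adjusted p = 0.351), with log2 ratios of 0.81 in lane 7 and 0.17 in lane 8. ZCCHC14, which brings TENT4 enzymes to RNA, was at 20.4 ± 1.71 and 23.3 ± 4.25 CPM (edgeR adjusted p = 0.420). SLIRP, a stabiliser of mitochondrial mRNAs, was at 142 ± 6.57 and 128 ± 18.4 CPM (edgeR adjusted p = 0.390), with log2 ratios of -0.31 and -0.002 in lanes 7 and 8. In lane 7 alone 9 genes of the list were called, where that fit called 4.79% of all genes. Without the filter on low counts 3 were called, where that fit called 1.02% of all genes.

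**Figure D5:**
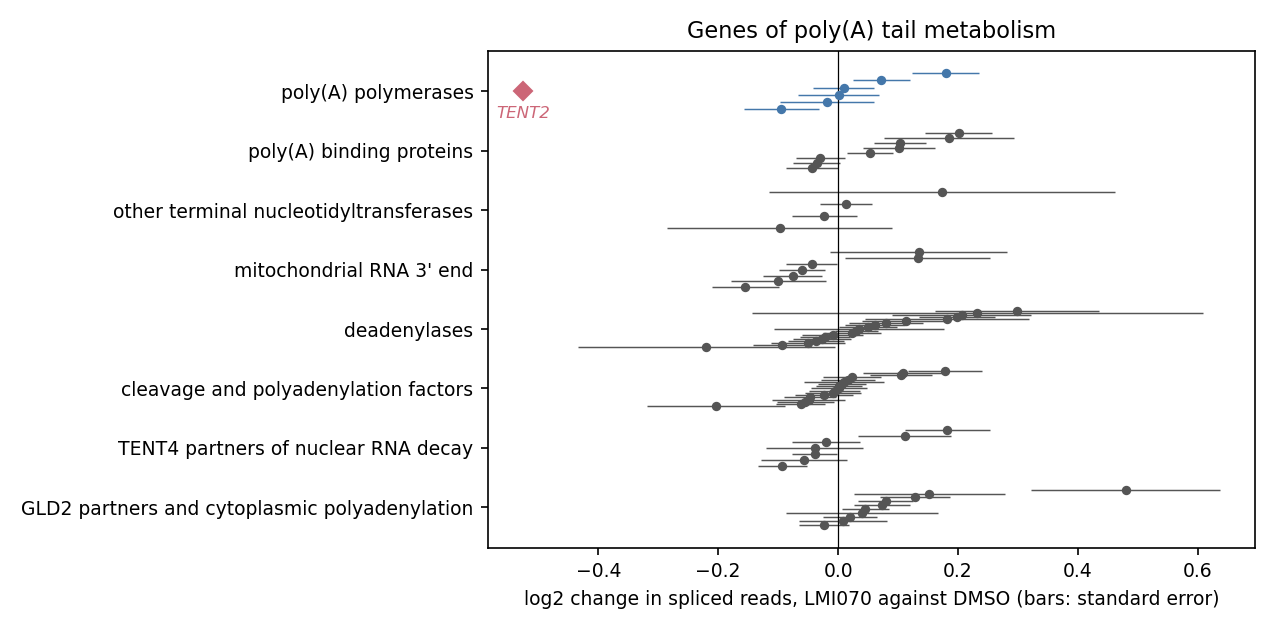
Log2 change in spliced reads, LMI070 against DMSO, for the tested genes of each list (points, with bars for the standard error) and for TENT2, drawn as a diamond without an error bar because it was not tested. TENT2 lies at -0.53; the gene farthest to the right is CPEB3 at 0.48.

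Genes whose level followed that of TENT2 over the 8 libraries were looked up by Pearson's r of log2 CPM among 10905 genes with a mean of at least 100 reads. The 5 highest were CIP2A (r = 0.988), EXOC2 (0.984), TXNIP (0.977), APPL2 (0.976) and CXorf38 (0.974). All points share the same libraries and the contrast by which TENT2 was chosen, so these values are a description. CIP2A, an inhibitor of a protein phosphatase, was at 183 ± 11.5 CPM in DMSO and 133 ± 1.33 in LMI070. Within the family the values were 0.60 for TENT4B, 0.21 for MTPAP, 0.06 for PAPOLG, 0.01 for TUT1, -0.16 for PAPOLA and -0.62 for TENT4A. The 5 genes above are the highest of 10905, so values below theirs mark nothing particular to the family.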

How the data were processed

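STAR 2.6.0c and GRCh38 are the aligner and build named in the submitters' processing notes. The files the authors deposited are that tool's junction tables, 1 per library, holding unnormalized counts of reads that cross each junction, separately for unique and multiple alignments; multiply mapped reads were 2.44% to 2.56% of junction reads and were not used. Alignment settings are not given in the sources used here. Reads within exons or introns were not analysed here.

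Junctions were matched to GENCODE 29 introns; 242867 of 653454 were annotated. Spliced reads per gene, cassette exons (at least 10 inclusion and 10 skipping reads in all and 10 reads per library, length 3 to 500 nt) and junction usage (at least 20 reads) were fitted over all features with edgeR 4.0.16 in R 4.3.3 (limma 3.58.1), with lane in the model and Benjamini-Hochberg adjustment; DESeq2 1.42.0 was an alternative. Exons and junctions also needed a change of 10 points. CPM used TMM factors. The scripts were tested on simulated data. The members and the gene lists were chosen with earlier results of these data known. Named were all 7 members, for each its exon and junction of smallest p, every TENT2 intron or its range, the 6 pathway genes of smallest p (fewer than 6 passed) and the 5 genes most like TENT2. Other TENT2 exons, the complementary junctions, the competing acceptors and the GA-ended exons were chosen after values were seen. Alternatives were tools, filters, lanes, multiply mapped reads and each library left out; the scaling-plot exclusion, the share of reads leaving exon 7 and the alternatives for intron levels were chosen after seeing the data.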

Additional observations from a re-analysis of the deposited data

Results flagged for a closer look

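Of 78 groups of 4 libraries, 5 had 1 library far from the other 3, where chance flags about 1 in 20. In MTPAP spliced reads, LMI070 replicate 16 was highest at 45.6 CPM, next to 41.8. In usage of the MTPAP junction starting at 30322618, DMSO replicate 12 was at 98.4% and the other 3 control libraries at 100%. In TENT2, LMI070 replicate 16 was the highest treated library on both junctions that skip the extra exon, with 2.51 CPM to the first acceptor (the next was 1.38) and 2.15 to the second (the next was 1.73). That library also had the lowest share of reads joining the extra exon among the treated libraries, at 13.3%. In the TENT2 intron starting at 79649191, LMI070 replicate 14 was highest at 3.95 CPM, next to 3.59.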

How the results depend on the processing

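The counts of called members (0 genes, 0 exons, 0 junctions) and of called pathway genes (0) were the same under all alternatives run except 2 for genes: without the low-count filter 1 member (TENT4A) and 3 pathway genes passed (1.02% of all genes did), and in lane 7 alone 1 (TENT4A) and 9 (4.79% of all genes). The difference in 3-junction inclusion of the TENT2 exon, 21.9 points, ranged from 13.7 (both acceptors as skipping reads) to 27.5 (upstream junction only), and was 14.1 with the downstream junction only, 16.2 as a share of reads leaving exon 7 and 19.6 to 26.1 with each library left out. The median TENT2 intron log2 ratio ran from -0.59 to -0.50 with each library left out, and was -0.63 in lane 7 and -0.50 in lane 8. Directions that turned belong to changes near 0 that were not called. In lane 8 alone TENT4B was at 0.0381, PAPOLA at -0.0438 and TUT1 at 0.0483 on the log2 scale, and the TENT4A exon from 6743712 at 0.327 points. In lane 7 alone MTPAP was at -0.0232. TUT1 was at 0.0058 without both libraries that lay apart. With each library left out PAPOLG ran from -0.0130 to 0.0488, MTPAP from -0.0616 to 0.0891 and TUT1 from -0.0668 to 0.0321. The cause was not tested. Depth limits the thin events, among them the extra TENT2 exon with 3 to 10 upstream reads per DMSO library and the 89-nt TENT2 exon with 7 upstream reads over all DMSO libraries. No paired analysis was possible because the groups share no replicate number.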
